A study of Mus musculus with 8 samples.

Results

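The genes described here encode enzymes and regulators of cholesterol and fatty acid synthesis, and were taken by symbol from a list of 33 genes. Of these, 31 had a row among the 11415 genes of the deposited table, and Scd1 and Fads2 did not. All 31 were tested as mature mRNA and as pre-mRNA, the unspliced precursor whose level follows ongoing transcription more closely than that of mRNA. The cells were mouse bone marrow-derived macrophages, grown for 5 days in M-CSF conditioned medium from IL10-/-RAG2-/- mice of strain 129S6/SvEvTac. All groups carried both disrupted genes, so the cells could make no functional IL-10 of their own and neither genotype was compared. The groups were LPS at 1 ng/mL for 195 min together with IL-10 at 1 ng/mL for the same 195 min (IL-10 throughout), LPS for 195 min where IL-10 was added only in its last 30 min (late IL-10, for which the labels do not restate the dose), LPS alone for 195 min, and untreated cells. LPS is a bacterial lipopolysaccharide that activates macrophages, and IL-10 is an anti-inflammatory cytokine. Each of the 4 groups had 2 libraries, made by ribosomal depletion with a directional kit, from 2 independent macrophage pools by the study's design.

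Cholesterol is built from acetyl-CoA through mevalonate, isoprenoid units, squalene and lanosterol. Fatty acid synthesis starts from the same precursor, and elongases and desaturases then lengthen the chains and add double bonds. When sterols run low in the endoplasmic reticulum, SCAP escorts the transcription factors SREBP-2 (Srebf2) and SREBP-1 (Srebf1) to the Golgi, where they are cut and released to activate these genes, and INSIG proteins hold SCAP back when sterols are plentiful. In macrophages the membrane lipid made by these routes is known to be remodelled after activation through Toll-like receptors.

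Sterol-responsive promoters are described by short motifs, so the promoters of the members were searched in RefSeq sequence (build GRCm38.p6, 250 bases before to 50 bases after the start). The table held 35 promoters for 26 of the 33 members. The sterol regulatory element TCACNCCAC, searched on both strands, occurred in 1 of the 35, that of Hmgcs1, against 1.24% of 32851 promoters of all genes. The CCAAT box, the letters bound by NF-Y and searched on both strands, occurred in 22 of the 35 (62.86%) against 37.41% of all promoters. The E-box CACGTG, which reads the same on both strands, occurred in 7 of the 35 (20%) against 7.15%. The Scap promoters overlap and share the same E-box. Counted by gene, the CCAAT box occurred in 21 of 26 members (80.77%) against 42.55% of 8802 genes with a row. The E-box occurred in 6 of 26 (23.08%) against 12.02%. The promoter of Hmgcs1 is shown because it held the sterol element, which begins at position -137 from the start. Those of Idi1, Lss and Elovl6 were chosen after their values were seen, as the member with the largest mRNA rise under LPS, a member that rose with IL-10 throughout in both measures, and the member that rose with late IL-10. Capitals mark matches to any of the 3 motifs, and no matches overlap in these 4 promoters.
Hmgcs1, chr13:119690101-119690400, plus strand: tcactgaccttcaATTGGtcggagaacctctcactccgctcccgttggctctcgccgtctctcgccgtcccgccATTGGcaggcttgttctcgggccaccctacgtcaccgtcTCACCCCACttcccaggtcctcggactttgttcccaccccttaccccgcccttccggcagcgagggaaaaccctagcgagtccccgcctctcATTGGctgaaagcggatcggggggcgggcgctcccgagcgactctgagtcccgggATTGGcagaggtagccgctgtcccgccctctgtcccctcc
Idi1, chr13:8885356-8885655, plus strand: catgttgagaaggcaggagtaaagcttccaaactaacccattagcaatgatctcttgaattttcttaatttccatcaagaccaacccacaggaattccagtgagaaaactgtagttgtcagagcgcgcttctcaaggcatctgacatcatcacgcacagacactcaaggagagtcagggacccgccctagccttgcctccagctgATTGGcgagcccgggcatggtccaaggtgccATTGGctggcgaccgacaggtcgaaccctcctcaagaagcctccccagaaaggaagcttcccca
Lss, chr10:76531355-76531654, plus strand: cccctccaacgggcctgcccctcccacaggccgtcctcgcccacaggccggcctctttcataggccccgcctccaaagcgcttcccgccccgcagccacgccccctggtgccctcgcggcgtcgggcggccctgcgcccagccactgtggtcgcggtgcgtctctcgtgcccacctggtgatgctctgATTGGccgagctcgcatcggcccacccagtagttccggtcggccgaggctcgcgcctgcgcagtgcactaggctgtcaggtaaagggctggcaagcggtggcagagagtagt
Elovl6, chr3:129532136-129532435, plus strand: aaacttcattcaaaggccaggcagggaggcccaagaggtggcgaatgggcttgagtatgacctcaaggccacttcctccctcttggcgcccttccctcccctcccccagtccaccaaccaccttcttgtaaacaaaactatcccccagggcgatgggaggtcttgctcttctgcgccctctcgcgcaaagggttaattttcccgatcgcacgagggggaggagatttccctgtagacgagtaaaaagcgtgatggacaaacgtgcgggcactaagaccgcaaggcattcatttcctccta
Hmgcs1 carried 4 CCAAT boxes beside the sterol element, Idi1 carried 2 and Lss carried 1, all read as ATTGG on the strand shown. Elovl6 had no match to any of the 3. A match is a description of letters, and a window without one says nothing about whether a factor acts on the gene.

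Values are normalized reads, meaning reads divided by the library's size factor. Each deposited value is the mean of a group's 2 libraries, and the reads of each library were worked out from it. The library with the larger size factor is called A and the other B, separately for each measure. Changes are log2 changes of normalized reads + 1 with their standard error (SE, n = 2 libraries per group), and "rose" and "fell" mean a Benjamini-Hochberg adjusted p under 0.05 over all genes in limma-trend. Library totals ran between 21412968 and 53172133 for mRNA and between 8661271 and 31508394 for pre-mRNA, and the smallest count of a member was 6 reads for mRNA (Idi1) and 8 for pre-mRNA (Dhcr7). The p-values measure the spread between these libraries. In bulk RNA, fewer cells with a transcript and less transcript per cell cannot be told apart.

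The libraries of different groups deviated together. Over genes with a mean of at least 50 normalized reads, the difference between libraries A and B in one group correlated with that in another at a Pearson r between -0.89 and 0.837 for mRNA, where library B of LPS went with library A of the other groups. For pre-mRNA the r lay between 0.337 and 0.802, with the libraries A going together. These are correlations across 10647 and 9792 genes, which are not independent replicates. A fit with the libraries that deviate together as a block was therefore added after the data were seen. It is given beside the counts below as the blocked fit. The labels tie no column to a pool, so the blocks come from the values and not from the design. Such blocks take out spread found in these same values, so the adjusted p of the blocked fit can be too small.

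The markers matched macrophages. Of 9 macrophage marker symbols 8 had a row, among them Csf1r, Adgre1 and Lyz2, and their summed mRNA was 606039 to 644654 normalized reads with IL-10 throughout, 794997 to 811905 with late IL-10, 789951 to 836419 with LPS and 496429 to 512980 in untreated libraries. Of 8 neutrophil and granule markers 6 had a row, and their sum was 792 to 908, 1069 to 1412, 1065 to 1275 and 50.9 to 293 in the same group order. Of 5 dendritic cell markers 4 had a row, with sums of 371 to 446, 554 to 596, 605 to 705 and 151 to 169. For T cells Lck and Cd28 had a row and Cd3e, Cd3d and Cd3g did not, and the sum of the first 2 was 395 to 757, 507 to 938, 431 to 735 and 3324 to 5494. A single one of these 2 genes made up 5487 of the highest sum of 5494. Of 4 stromal markers only Pdgfra had a row, at no more than 33.1 normalized reads, and no B cell, adipocyte or mast cell marker had one. Every gene with a row had at least 11 mRNA reads in each LPS library. A missing row therefore does not show that a marker was absent in the other groups. The neutrophil, dendritic cell and T cell sums differed between LPS and untreated libraries, and their part in the results was not tested. The treatments were visible in the response genes. Tnf mRNA had 216667 and 215025 normalized reads with LPS against 482 and 423 in untreated cells, and Il4ra mRNA, known to be raised by IL-10, had 152757 and 127113 with IL-10 throughout against 7485 and 11877 with LPS.

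LPS against untreated cells shows what activation did to the pathway. Most sterol synthesis steps from Hmgcs1 to Sc5d that changed went up, as did Srebf2, Insig1 and the sterol carrier Stard4, whereas the last step Dhcr7 and the lipid-modifying enzymes Elovl6, Fads1 and Scd2 went down. In mRNA 13 of 31 members rose and 4 fell, which is 54.8% of the members against 35.7% of all genes tested. Higher calls made up 41.9% of the members against 19.2% of all genes, and lower calls 12.9% against 16.5%. In pre-mRNA 15 rose and 5 fell, 64.5% of the members against 44% of all genes, of which 22.3% were higher and 21.7% lower. The median change of the members was 0.57 in mRNA and 0.68 in pre-mRNA, against 0.01 and 0.00 over all genes. Both LPS libraries were above both untreated ones for 18 members in mRNA (58.1%, against 34.7% of all genes) and 19 in pre-mRNA (61.3%, against 36.2%), and below them for 8 (25.8%, against 34.2%) and 9 (29.0%, against 36.5%). The blocked fit called 19 higher and 4 lower in mRNA, where it called 60.4% of all genes (31.8% higher and 28.6% lower). In pre-mRNA it called 17 higher and 5 lower, against 63% of all genes (32.7% higher and 30.2% lower).

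**Figure D1:**
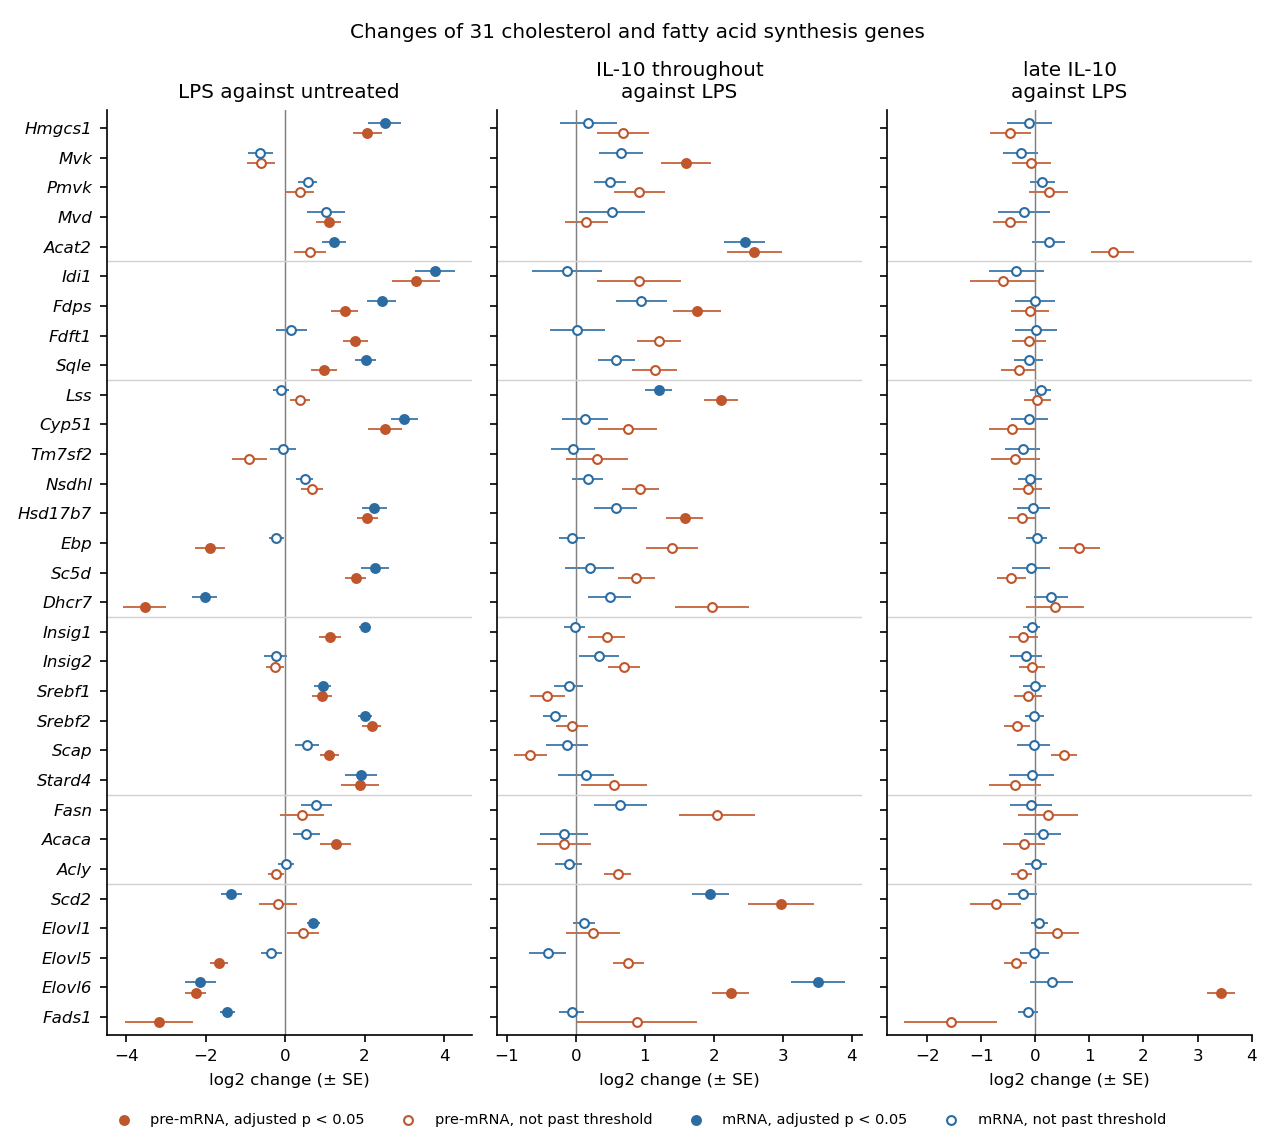
Log2 change with its SE for each of the 31 members, in rows grouped by role (mevalonate steps, isoprenoid and squalene steps, lanosterol to cholesterol, regulators and transport, fatty acid synthesis, desaturases and elongases). Panels give LPS against untreated, IL-10 throughout against LPS and late IL-10 against LPS, each on its own log2 axis. Blue is mRNA, orange is pre-mRNA and filled points have an adjusted p under 0.05. The pre-mRNA points for IL-10 throughout sit right of 0 for 27 members, where 5579 of all 11131 genes were positive.

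Among the early steps, Hmgcs1, which makes HMG-CoA, had 9292 and 13443 normalized mRNA reads with LPS against 2401 and 1609.9 in untreated cells, a change of 2.51 ± 0.42 (adjusted p = 0.00494). Its pre-mRNA had 2394 and 1827 with LPS against 624 and 395 untreated, a change of 2.07 ± 0.37. Both LPS libraries stood above both untreated ones in each measure. Acat2, the thiolase that joins acetyl-CoA units, had 223 and 159.7 mRNA reads with LPS against 95.9 and 65.8 untreated (1.24 ± 0.30, adjusted p = 0.02), and its pre-mRNA had 136 and 158 against 134 and 67.0 (adjusted p = 0.237). Mvd, which decarboxylates mevalonate diphosphate, had 321 and 443 pre-mRNA reads with LPS against 146 and 211 untreated (1.10 ± 0.32, adjusted p = 0.0254), and 773 and 419 against 265 and 288 in mRNA (adjusted p = 0.135, and 0.0129 in the blocked fit). The groups did not overlap for either gene in either measure. The kinases Mvk and Pmvk passed in neither measure, at -0.62 and 0.57 in mRNA and -0.60 and 0.37 in pre-mRNA. In the blocked fit Pmvk mRNA was called higher (adjusted p = 0.0182).

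All 4 isoprenoid and squalene genes rose in at least 1 measure. Idi1, which interconverts the isoprenoid units, had 159.7 and 217 mRNA reads with LPS against 21.2 and 7.45 in untreated cells, the largest mRNA change of a member at 3.77 ± 0.51 (adjusted p = 0.002), and 308 and 282 pre-mRNA reads against 57.5 and 14.6 (3.29 ± 0.61). Fdps, which makes farnesyl diphosphate, had 140.1 and 219.9 mRNA reads with LPS against 37.0 and 27.3 (2.43 ± 0.37), and 351 and 405 pre-mRNA reads against 186 and 94.7 (1.5 ± 0.35). In both genes the LPS libraries were all above the untreated ones. Sqle, the squalene epoxidase, had 3089 and 3549 mRNA reads with LPS against 970.4 and 678 (2.03 ± 0.27), and 633 and 698 pre-mRNA reads against 438 and 262 (0.97 ± 0.33, adjusted p = 0.0448). Fdft1, the squalene synthase, rose in pre-mRNA, with 1771 and 1663 reads under LPS against 682 and 370.1 untreated (1.77 ± 0.32), while its mRNA had 5443 and 8571 against 7788 and 4816 and overlapped between the groups (0.16 ± 0.40). The pre-mRNA of all 4 genes rose, but with scaling to total reads the calls of Fdps (adjusted p = 0.288), Sqle (0.907) and Fdft1 (0.061) were lost and that of Idi1 held.

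Between lanosterol and cholesterol the direction was mixed. Cyp51, the lanosterol demethylase, had 4371 and 6022 mRNA reads with LPS against 748 and 547 untreated (3.0 ± 0.34, adjusted p = 0.00103) and 1414 and 1079.7 pre-mRNA reads against 315 and 147 (2.51 ± 0.43). Hsd17b7, a sterol ketoreductase, had 724 and 908 mRNA reads against 224 and 130.3 (2.24 ± 0.31) and 216 and 217 pre-mRNA reads against 51.1 and 51.0 (2.06 ± 0.27). Sc5d, the sterol desaturase, had 2210.2 and 3201 mRNA reads against 582 and 532 (2.25 ± 0.35) and 489 and 497 pre-mRNA reads against 130.0 and 157 (1.78 ± 0.27). All 3 were above untreated in every LPS library. Dhcr7, the reductase of the last step, went the other way, with 175 and 127 mRNA reads under LPS against 609 and 617 untreated (-2.03 ± 0.31, adjusted p = 0.00349). Its pre-mRNA had 9.40 and 22.9 reads against 191 and 175 (-3.54 ± 0.53). Ebp, the sterol isomerase, had 24.7 and 29.7 pre-mRNA reads with LPS against 118 and 90.3 untreated (-1.89 ± 0.37, adjusted p = 0.00541), whereas its mRNA had 914 and 1112 against 1139.7 and 1213 (-0.22 ± 0.19). Both LPS libraries of Dhcr7 and Ebp lay below both untreated ones. Lss, Tm7sf2 and Nsdhl passed in neither measure, with changes between -0.90 and 0.68. In the blocked fit Nsdhl, a sterol dehydrogenase, was called higher in both (adjusted p = 0.0243 in mRNA and 0.0125 in pre-mRNA).

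**Figure D2:**
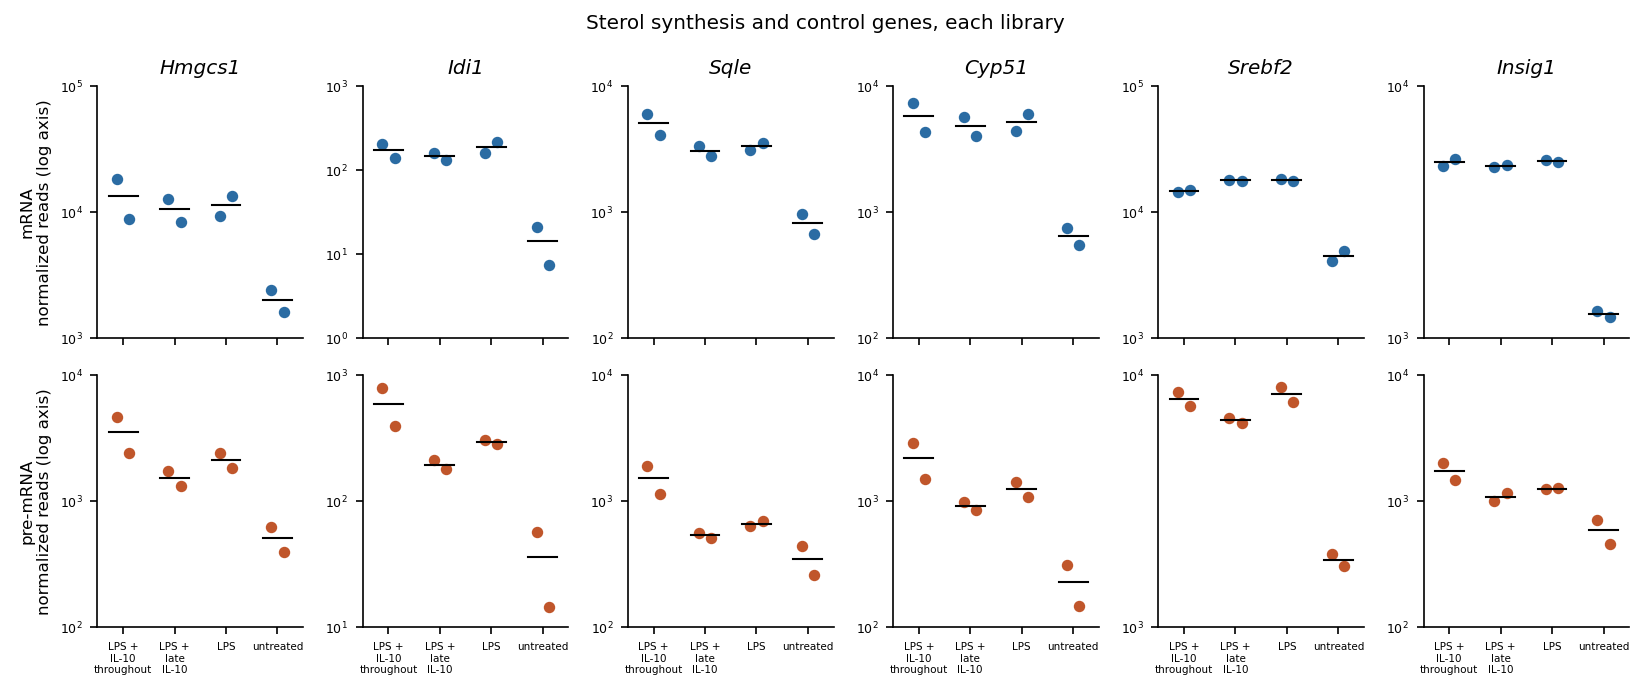
Normalized reads in each library (points) and group mean (line) on a log axis for 6 sterol synthesis and control genes, with mRNA in the top row and pre-mRNA in the bottom row and groups ordered IL-10 throughout, late IL-10, LPS and untreated. In all 12 panels every LPS library lies above both untreated libraries, as for Idi1 mRNA with 159.7 and 217 against 21.2 and 7.45.

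The regulators rose with LPS in most cases. Srebf2, which encodes SREBP-2, had 18473 and 17764 mRNA reads with LPS against 4094 and 4887 untreated (2.02 ± 0.18, adjusted p = 0.000412) and 8973 and 7789 pre-mRNA reads against 1949 and 1754 (2.18 ± 0.23). Insig1 had 5074 and 5017 mRNA reads against 1287 and 1214 (2.01 ± 0.16) and 1239.7 and 1271 pre-mRNA reads against 714 and 460.5 (1.13 ± 0.27). Srebf1 had 5541 and 7205 mRNA reads against 3042 and 3544 (0.94 ± 0.21) and 2744 and 1943 pre-mRNA reads against 1037 and 1402 (0.94 ± 0.25). The groups of these 3 genes did not overlap in either measure. Scap rose in pre-mRNA, with 1173 and 1672 reads under LPS against 638 and 657 (1.11 ± 0.24), and had 3617 and 2748 mRNA reads against 1681 and 2760.5, where the groups overlapped (adjusted p = 0.203, and 0.0142 in the blocked fit). Stard4, which carries sterols between membranes, had 2911 and 4220.4 mRNA reads against 1255 and 693 (1.91 ± 0.41) and 974 and 861 pre-mRNA reads against 389.9 and 157 (1.88 ± 0.48). Insig2 passed in neither measure, with 702 and 733 mRNA reads under LPS against 932 and 765 and 538 and 436 pre-mRNA reads against 603 and 558. Its LPS libraries were the lower ones in both measures.

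The fatty acid genes did not follow the sterol genes as a group. Of Fasn, the fatty acid synthase, Acaca, the acetyl-CoA carboxylase, and Acly, which supplies acetyl-CoA from citrate, none passed in mRNA in limma-trend (0 of 3 also at an unadjusted p under 0.05, and 2 of 3, Fasn and Acaca, higher in the blocked fit). Acaca rose in pre-mRNA, with 2962 and 1405 reads under LPS against 966 and 740.2 untreated (1.27 ± 0.39, adjusted p = 0.0326). Both its LPS libraries were above the untreated ones, and library B was well below library A. Its mRNA had 289 and 405 reads with LPS against 256 and 217 untreated. Elovl6, which lengthens C16 chains to C18, had 34.0 and 30.8 mRNA reads with LPS against 172 and 123 (-2.13 ± 0.40) and 71.7 and 78.3 pre-mRNA reads against 290.3 and 444 (-2.25 ± 0.27). Fads1, the delta-5 desaturase, had 1789 and 1615 mRNA reads against 4355 and 5002 (-1.46 ± 0.19) and 48.2 and 143 pre-mRNA reads against 710.1 and 815 (-3.18 ± 0.87). Both genes were below untreated in every LPS library. Scd2, a stearoyl-CoA desaturase, had 366 and 277 mRNA reads with LPS against 884 and 759.6 (-1.36 ± 0.26), and its pre-mRNA, with 24.7 and 31 reads against 36.2 and 27.7, overlapped between the groups (-0.19 ± 0.48). Elovl5, an elongase of polyunsaturated chains, had 286 and 271 pre-mRNA reads with LPS against 818 and 954 (-1.66 ± 0.22) and 1722 and 2332 mRNA reads against 2412 and 2679.8 (-0.34 ± 0.27). Elovl1, an elongase of very long saturated chains, had 4072 and 3888 mRNA reads against 2312 and 2544, without overlap (0.71 ± 0.16, adjusted p = 0.0144), a change that is -0.03 when libraries are scaled to total reads. Its pre-mRNA had 336 and 602 reads with LPS against 252 and 427, which overlapped, and was called higher in the blocked fit (adjusted p = 0.0398).

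Scaling to total reads lowered the LPS change of the median gene by 0.75 in mRNA and 0.92 in pre-mRNA. The members' split was then 10 higher and 10 lower in mRNA, where 1203 of all 11415 genes were higher and 4496 lower. In pre-mRNA the split was 5 higher and 9 lower, where 1237 of all genes were higher and 4682 lower. That scaling ended the mRNA calls of Acat2, Srebf1 and Elovl1 and the pre-mRNA calls of Fdps, Sqle, Fdft1, Sc5d (adjusted p = 0.0873), Scap (0.676), Srebf1, Acaca, Stard4, Mvd and Insig1. Leaving out 1 library ended the mRNA calls of Elovl1 (adjusted p = 0.0548 without untreated A, 0.0753 without LPS A and 0.0789 without LPS B), Scd2 (0.0513 without untreated A, 0.06 without LPS B), Srebf1 (0.0707 without untreated A, 0.105 without LPS B), Acat2 (0.0912 without untreated B, 0.0948 without LPS A) and Stard4 (0.0713 without untreated B, 0.074 without LPS B). Over all 12 alternatives the lowest adjusted p of each of these genes came from the blocked fit, where it can be too small. Those values were 0.00126 for Elovl1, 0.00274 for Scd2, 0.00277 for Srebf1, 0.00832 for Acat2 and 4.91e-05 for Stard4. The highest was 0.904 for Elovl1, 0.37 for Srebf1 and 0.316 for Acat2. Leaving out 1 library gave the highest for Scd2 and Stard4. It likewise ended the pre-mRNA calls of Mvd (0.134 without untreated A, 0.104 without LPS B), Sqle (0.239 without untreated B, 0.102 without LPS A, 0.119 without LPS B), Acaca (0.0728 without untreated A, 0.156 without untreated B, 0.164 without LPS A), Srebf1 (0.11 without untreated A, 0.104 without LPS A), Stard4 (0.0899 without untreated B, 0.0633 without LPS A), Fads1 (0.0779 without untreated A, 0.0944 without untreated B, 0.104 without LPS A), Fdps (0.0537 without untreated B) and Insig1 (0.0747 without untreated B). For these 8 the highest adjusted p over the 12 alternatives reached 0.954 (Srebf1). The lowest came from the blocked fit for each, and lay between 0.000595 (Stard4) and 0.00963 (Sqle).

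The pre-mRNA and mRNA changes under LPS were set against each other in a joint fit, which takes no account of both measures coming from 1 RNA sample. Ebp was the 1 member called, with a pre-mRNA change 1.67 ± 0.36 below its mRNA change (a difference of -1.67, adjusted p = 0.0499), against 1.24% of all genes. The call was lost with a pseudocount of 5 and with scaling to total reads. It was also lost without mRNA untreated A or B, mRNA LPS A or B, pre-mRNA untreated A or B, or pre-mRNA LPS A, each of which left 0 members called.

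Genes of the same pathways outside the list were counted beside the members. Of 18 SREBP processing and sterol uptake genes 16 were tested, and in mRNA Npc1, a lysosomal cholesterol exporter, had 8411 and 7559.8 reads with LPS against 13814 and 15269 in untreated cells and fell (-0.86 ± 0.18, adjusted p = 0.0109). Soat1, which esterifies cholesterol, had 8065 and 9823 mRNA reads with LPS against 19772 and 19645 and fell too (-1.15 ± 0.22, adjusted p = 0.00876). Both genes also fell in pre-mRNA, by 1.54 and 2.68 on the log2 scale, and their groups did not overlap in either measure. Of 33 other fatty acid genes 24 were tested. In mRNA 7 were higher and 3 lower (41.7%, against 35.7% of all genes), and in pre-mRNA 7 higher and 7 lower (58.3%, against 44%). Acsl1, an acyl-CoA synthetase, had 16869.5 and 23787 mRNA reads with LPS against 1815 and 1847 (3.45 ± 0.30).

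The next comparison asked what IL-10 present throughout changed in LPS-treated cells. More members passed in pre-mRNA than in mRNA. The sterol genes Acat2, Lss, Fdps, Mvk and Hsd17b7 rose in pre-mRNA, as did the lipid-modifying enzymes Scd2 and Elovl6, and Lss, Acat2, Scd2 and Elovl6 rose in mRNA too. In pre-mRNA 7 of 31 members rose and 0 fell, 22.6% of the members against 6.7% of all genes, with 2.44% of all genes higher and 4.26% lower. The 0 lower calls come from limma-trend, and at an unadjusted p under 0.05 the counts were 18 higher and 1 lower. Over all 11131 genes 1053 were higher and 1515 lower at that unadjusted p. The blocked fit called 18 higher and 0 lower, against 25.1% of all genes (9.66% higher and 15.5% lower). In mRNA 4 rose and 0 fell, 12.9% of the members against 2.24% of all genes (1.19% higher and 1.05% lower). Unadjusted, 5 members were higher and 0 lower at p under 0.05, against 716 and 955 of all 11415 genes. The blocked fit called 6 higher and 0 lower in mRNA, against 15.3% of all genes (6% higher and 9.27% lower).

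Library by library, in pre-mRNA both IL-10 throughout libraries were above both LPS libraries for 23 of 31 members (74.2%, against 24.4% of all genes) and below them for 2 (6.45%, against 25.6%), Scap and Srebf1. In mRNA they were above for 10 members (32.3%, against 20.6%) and below for 2 (6.45%, against 21.3%), Acly and Srebf2. The median change of the members was 0.89 in pre-mRNA and 0.17 in mRNA, against 0.00 and -0.02 over all genes. The libraries of IL-10 throughout differed among themselves, with library A higher than B for 23 members in mRNA and 22 in pre-mRNA. For all 17 sterol synthesis members the pre-mRNA change was positive, from 0.15 to 2.59, as it was for 5579 of all 11131 genes. The pre-mRNA change exceeded the mRNA change for 27 of the 31 members, and for 5021 of all 11131 genes. The joint fit called 0 members for that difference and 0.0629% of all genes. At an unadjusted p under 0.05 there were 7 members higher and 1 lower, against 250 and 171 of all genes. Scaling to total reads raised the change of the median gene by 0.26 in mRNA and 0.46 in pre-mRNA. In mRNA 4 members were then higher and 0 lower, where 174 of all 11415 genes were higher and 101 lower. In pre-mRNA 10 members were higher and 0 lower, where 392 of all genes were higher and 349 lower.

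**Figure D3:**
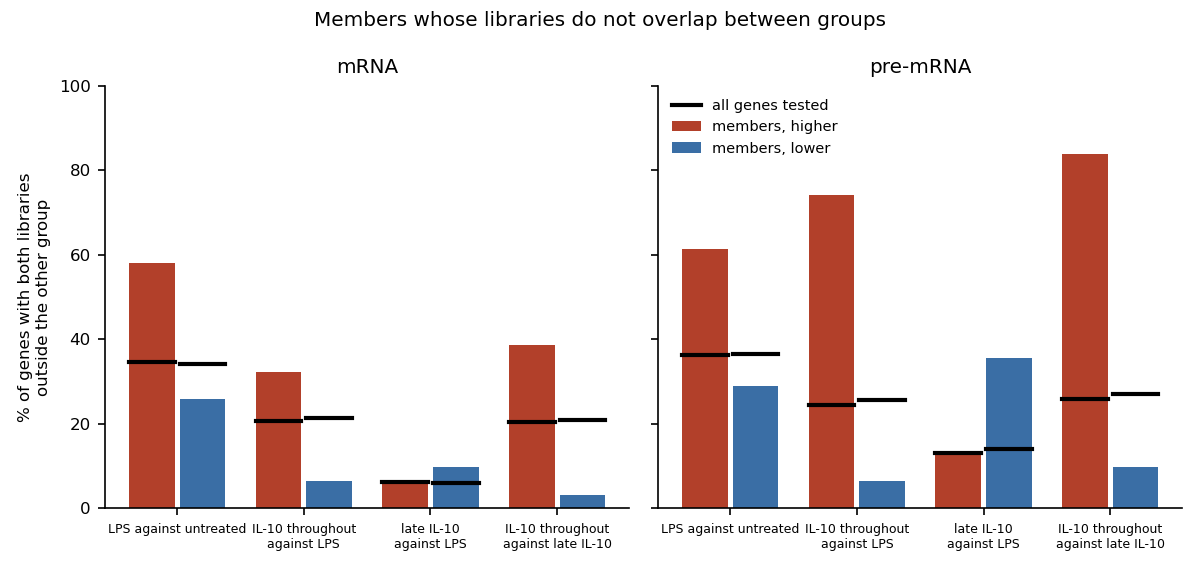
Percent of the 31 members (bars, red for higher and blue for lower) whose 2 libraries in the first-named group all lie outside those of the second, for 4 comparisons in mRNA and pre-mRNA; black lines give the same percent over all genes tested. In pre-mRNA the red bar for IL-10 throughout against LPS stands at 74.2% and that for IL-10 throughout against late IL-10 at 83.9%, with black lines at 24.4% and 26%.

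Lss, which closes squalene epoxide to lanosterol (mm10 chromosome 10, 76531588 to 76557138), rose in both measures. It had 1162 and 997 pre-mRNA reads with IL-10 throughout against 219 and 285 with LPS (2.10 ± 0.25, adjusted p = 0.00657), and 1101 and 1045 mRNA reads against 428 and 507 (1.20 ± 0.19, adjusted p = 0.0315). Untreated cells had 200.3 and 184 pre-mRNA and 484 and 516 mRNA reads, so the IL-10 libraries were the highest of all groups. The antisense gene 4930483K19Rik shares 11268 bases with Lss, and the strand setting of the counting is not given in the sources used here. Acat2 (chromosome 17, 12942890 to 12960747) had 1063 and 740.0 pre-mRNA reads with IL-10 throughout against 136 and 158 (2.59 ± 0.40, adjusted p = 0.0149) and 1158 and 919 mRNA reads against 223 and 159.7 (2.45 ± 0.30, adjusted p = 0.0118). Its IL-10 throughout libraries were above those of every other group.

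Mvk, Fdps and Hsd17b7 rose in pre-mRNA. Mvk, the mevalonate kinase, had 567 and 512 pre-mRNA reads with IL-10 throughout against 129 and 244 with LPS (1.6 ± 0.36, adjusted p = 0.043). Fdps had 1399 and 1171 against 351 and 405 (1.76 ± 0.35, adjusted p = 0.0303), and Hsd17b7 had 719 and 587 against 216 and 217 (1.58 ± 0.27, adjusted p = 0.018). No library of the 3 overlapped between the groups. Their mRNA stood at 0.65 ± 0.32, 0.95 ± 0.37 and 0.58 ± 0.31 and did not pass, though the IL-10 throughout libraries were the higher ones for all 3. Fdft1 and Sqle, at 1.21 ± 0.32 (adjusted p = 0.0671) and 1.14 ± 0.33 (adjusted p = 0.0833) in pre-mRNA, also missed the threshold and were called in the blocked fit (adjusted p = 0.0121 and 0.0139). Dhcr7 and Ebp, whose pre-mRNA LPS had lowered, had 47.9 and 77.7 and 80.4 and 65.8 pre-mRNA reads with IL-10 throughout against 9.40 and 22.9 and 24.7 and 29.7 with LPS. Their changes of 1.98 ± 0.53 (adjusted p = 0.0694) and 1.39 ± 0.37 (adjusted p = 0.0683) passed in the blocked fit (0.0123 and 0.0192).

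Fdps shares 7512 bases with Gm43738 on the same strand in GENCODE M21, which has no row in the table, so reads of the pair could have been split in the counting. Cyp51, Elovl1, Fdft1 and Srebf1 overlap Akap9, Cdc20, Ctsb and Rai1 on the opposite strand by 166, 53, 774 and 109 bases. Acaca, Mvd and Hmgcs1 share 19126, 9822 and 6190 bases with Gm11437, Gm20388 and Gm48342 on the opposite strand. Scap and Insig2 share 3383 and 3058 with 5830462I19Rik and Gm37174, also opposite. Tm7sf2 shares 532 bases with Vps51 on the same strand. Other overlaps are not listed, and the part of any overlap in the counts was not tested.

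Elovl6 and Scd2, whose mRNA LPS had lowered, rose in both measures. Elovl6 (chromosome 3, 129532355 to 129638495) had 525 and 274 mRNA reads with IL-10 throughout against 34.0 and 30.8 with LPS (3.51 ± 0.40, adjusted p = 0.00908), and 351 and 367 pre-mRNA reads against 71.7 and 78.3 (2.24 ± 0.27, adjusted p = 0.00657). Both mRNA libraries stood above the untreated values of 172 and 123 as well, while the pre-mRNA libraries lay between the untreated values of 290.3 and 444. Scd2 (chromosome 19, 44293674 to 44306864) had 1377 and 1106 mRNA reads with IL-10 throughout against 366 and 277 (1.95 ± 0.26, adjusted p = 0.0163), and 224 and 223 pre-mRNA reads against 24.7 and 31 (2.97 ± 0.48, adjusted p = 0.016). Its pre-mRNA in untreated cells was 36.2 and 27.7, below every IL-10 throughout library. Fads1, which LPS also lowered, had 1639.8 and 1612 mRNA reads with IL-10 throughout against 1789 and 1615 with LPS (-0.06 ± 0.19). Fasn pre-mRNA had 280.2 and 371 reads against 43.5 and 136 (2.05 ± 0.55, adjusted p = 0.0707, and 0.00555 in the blocked fit).

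**Figure D4:**
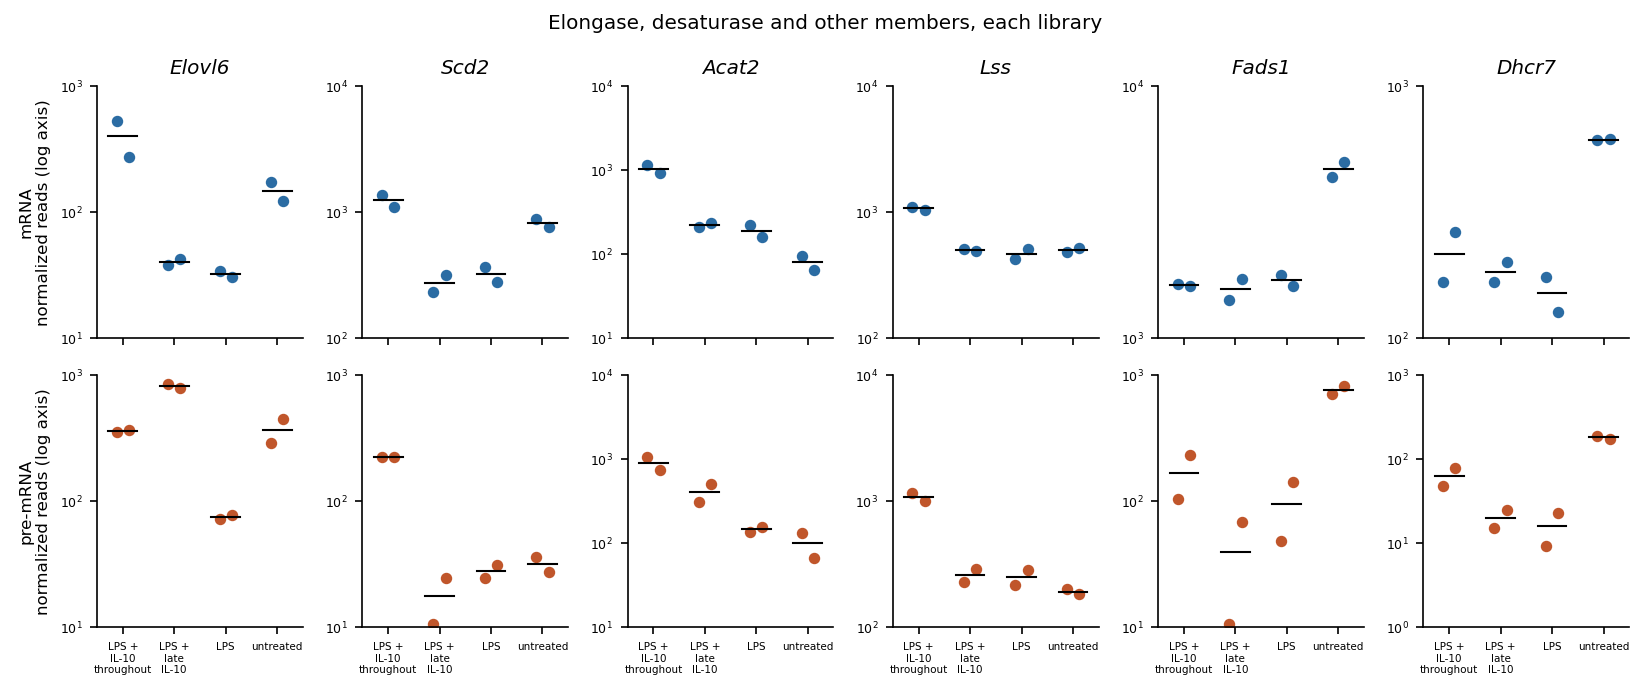
Normalized reads in each library (points) and group mean (line) on a log axis for Elovl6, Scd2, Acat2, Lss, Fads1 and Dhcr7, with mRNA in the top row and pre-mRNA in the bottom row and groups ordered IL-10 throughout, late IL-10, LPS and untreated. Elovl6 pre-mRNA is highest with late IL-10, at 850.3 and 790.0, while its mRNA there is 37.8 and 42.6, near the LPS values of 34.0 and 30.8.

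The other members called under LPS passed the test against LPS in neither measure. With IL-10 throughout Hmgcs1 had 18243 and 8799 mRNA reads and 4668 and 2418 pre-mRNA reads. Idi1 had 206 and 139 mRNA reads and 793 and 392 pre-mRNA reads, and Cyp51 had 7341 and 4306 mRNA reads and 2903 and 1487 pre-mRNA reads. For these 3 the pre-mRNA of both libraries was above that with LPS, while the mRNA overlapped. Hmgcs1 pre-mRNA was called in the blocked fit (adjusted p = 0.0259). Sqle had 5997 and 4119 mRNA reads and 1901 and 1138 pre-mRNA reads, and Fdft1 had 8731 and 5497 mRNA reads and 4724 and 3322 pre-mRNA reads. Stard4 had 5039 and 2993 mRNA reads and 1883 and 958 pre-mRNA reads, and Mvd had 647 and 1035 mRNA reads and 369 and 475 pre-mRNA reads. Sqle was above LPS in both measures and Fdft1 in pre-mRNA alone, whereas Stard4 and Mvd overlapped with LPS in both. Acaca had 378 and 242 mRNA reads and 2087 and 1569 pre-mRNA reads, and Elovl1 had 4405 and 4252 mRNA reads and 441 and 647 pre-mRNA reads. In mRNA Ebp had 1032 and 911 reads, Dhcr7 167 and 265, Sc5d 3984 and 2343, Elovl5 1741 and 1308 and Scap 2689 and 3086, and Fads1 pre-mRNA had 103 and 231. Of these 7 genes Elovl1 mRNA alone stood above LPS in both libraries, and the mRNA of the other 6 and the pre-mRNA of Acaca, Elovl1 and Fads1 overlapped with LPS. Mvk mRNA had 240.4 and 261 reads with IL-10 throughout, 172 and 147 with LPS and 251 and 241 in untreated cells, whose pre-mRNA had 273 and 268. Fdps mRNA had 427 and 271 reads and Hsd17b7 mRNA 1411 and 1036 with IL-10 throughout. In the blocked fit Fdps and Sqle mRNA were called higher (adjusted p = 0.0343 and 0.0281), as were the pre-mRNAs of Acly, Nsdhl, Elovl5 and Sc5d (0.0199, 0.00952, 0.0147 and 0.0341).

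The regulators did not pass the test. Srebf2 had 14413 and 14937 mRNA reads with IL-10 throughout against 18473 and 17764 with LPS (-0.30 ± 0.18) and 8584 and 7513 pre-mRNA reads against 8973 and 7789 (-0.06 ± 0.23). Insig1 had 4816 and 5139 mRNA reads against 5074 and 5017 (-0.02 ± 0.16) and 1993 and 1468 pre-mRNA reads against 1239.7 and 1271 (0.45 ± 0.27). Srebf1 had 6094 and 5646 mRNA reads against 5541 and 7205 and 1698 and 1763 pre-mRNA reads against 2744 and 1943 (-0.11 ± 0.21 and -0.42 ± 0.25). Insig2 had 1201 and 681 mRNA reads and 900.5 and 689 pre-mRNA reads with IL-10 throughout. Scap and Insig2 were at -0.13 ± 0.31 and 0.33 ± 0.29 in mRNA and -0.66 ± 0.24 and 0.70 ± 0.23 in pre-mRNA. None of the 6 regulator and transport members passed in either measure (limma-trend, 0 of 6, and at an unadjusted p under 0.05 0 in mRNA and 1 higher and 1 lower in pre-mRNA). In the blocked fit Insig2 pre-mRNA was called higher (adjusted p = 0.0132).

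Leaving out 1 library lowered the IL-10 throughout counts in all but 1 case. In mRNA 2 members were called without LPS A, 0 without LPS B, 0 without IL-10 throughout A and 1 without IL-10 throughout B, and with the other groups dropped from the fit 0. In pre-mRNA 2 were called without LPS A, 9 without LPS B, 2 without IL-10 throughout A, 0 without IL-10 throughout B, and 4 with no filter on low values. The share of all genes called was not counted in these fits, so their counts cannot be set against it. The log2 changes themselves moved less. Over all alternatives Elovl6 mRNA stayed between 3.04 and 3.98, Acat2 mRNA between 2.21 and 2.71, Scd2 pre-mRNA between 2.81 and 3.42 and Lss pre-mRNA between 1.91 and 2.56. The summed pre-mRNA of neutrophil markers was 80.4 to 109 normalized reads with IL-10 throughout against 139.8 to 144 with LPS, and that of dendritic cell markers 85.2 to 148 against 331 to 362. Their part in the result was not tested.

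Outside the list, 11 of 12 other sterol synthesis genes were tested, with 0 mRNA calls (0 unadjusted) and 1 pre-mRNA rise, Aacs, an acetoacetyl-CoA synthetase, with 1752 and 1824 reads with IL-10 throughout against 548 and 752 with LPS (1.48 ± 0.34). Of the 16 SREBP processing and uptake genes, Soat1 pre-mRNA rose, with 2789 and 3495 reads against 825 and 1186 (1.66 ± 0.26), and 0 changed in mRNA (1 lower unadjusted). Of the 24 other fatty acid genes 3 rose in pre-mRNA, Hacd1, Fads3 and Acsl3, and 0 changed in mRNA (3 higher and 2 lower unadjusted). The pre-mRNA calls made up 9.09%, 6.25% and 12.5% of these lists in turn, against 6.7% of all genes. Fads3, a desaturase-like family member, had 113 and 243 pre-mRNA reads against 14.1 and 24.3 (3.09 ± 0.55).

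Late IL-10 against LPS shows the first 30 min after the cytokine. Elovl6 was the 1 member that rose in pre-mRNA, 3.23% of the members against 1.04% of all genes, of which 0.979% were higher and 0.0629% lower. The blocked fit also called 1 member, against 4.29% of all genes (3% higher and 1.29% lower). Its pre-mRNA had 850.3 and 790.0 reads with late IL-10 against 71.7 and 78.3 with LPS, a change of 3.43 ± 0.27 (adjusted p = 0.00232). Both late IL-10 libraries were above every library of the other 3 groups. Its mRNA had 37.8 and 42.6 reads with late IL-10 against 34.0 and 30.8 with LPS, which did not overlap but did not pass the test either (0.30 ± 0.40). The pre-mRNA call held in each of the 12 alternatives, with a log2 change from 3.37 to 3.5 and an adjusted p of at most 0.0365. The lowest adjusted p, 0.000407, came from the blocked fit, where it can be too small. The antisense gene Gm35986 shares 34 bases with Elovl6 at its start, and Gm43072 shares 1671 bases on the same strand.

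No other member was called. In mRNA 0 of 31 were called in limma-trend, against 0% of all genes, with 0 higher and 0 lower at an unadjusted p under 0.05, 0 in limma-voom and 0 in the blocked fit (0.0526% of all genes), and changes lay between -0.35 and 0.30. In pre-mRNA the median change was -0.21, against -0.05 over all genes, and 0 were lower at an unadjusted p under 0.05 (293 of all 11131 genes). Both late IL-10 libraries were below both LPS libraries for 11 of 31 members (35.5%, against 14.1% of all genes), namely Hmgcs1, Mvd, Idi1, Sqle, Cyp51, Hsd17b7, Sc5d, Srebf2, Insig1, Acly and Elovl5. They were above for 4 (12.9%, against 13.1%), namely Elovl6, Acat2, Ebp and Scap. Hmgcs1 pre-mRNA had 1740.4 and 1329.7 reads with late IL-10 against 2394 and 1827 with LPS (-0.46 ± 0.37), and Sc5d had 319 and 408 against 489 and 497 (-0.45 ± 0.27). Acat2 pre-mRNA had 313 and 503 reads against 136 and 158 (1.43 ± 0.40, adjusted p = 0.244), the largest rise after that of Elovl6 and short of the threshold. The summed pre-mRNA of the T cell markers Lck and Cd28 was 193 to 321 with late IL-10 against 51.3 to 61.1 with LPS, and its part in the result was not tested. In untreated cells 1 of these 2 genes made up 1731 of the highest pre-mRNA sum of 1737. Of the genes outside the list, 0 of 11 other sterol synthesis genes, 0 of 16 SREBP processing and uptake genes and 0 of 24 other fatty acid genes were called in either measure by limma-trend. At an unadjusted p under 0.05 there were 0 in mRNA and 1 lower sterol gene and 1 higher fatty acid gene in pre-mRNA. The late IL-10 and IL-10 throughout comparisons share the LPS libraries, so their changes are given side by side only.

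With late IL-10 the remaining values were as follows. Hmgcs1 had 12829 and 8345 mRNA reads, Lss 509 and 491, Fdps 190.1 and 163, Hsd17b7 817 and 767, Sc5d 3238 and 1972, Elovl5 2356 and 1659 and Scap 2584 and 3681. Mvk had 99.6 and 174 mRNA reads and 135 and 211 pre-mRNA reads, and Mvd had 322 and 752 mRNA reads and 229.6 and 319.8 pre-mRNA reads. All of these overlapped with LPS except Mvd pre-mRNA, whose late libraries were the lower ones. Idi1 had 159.6 and 133 mRNA reads and 211 and 179.5 pre-mRNA reads, and Fdft1 had 8777 and 5426 mRNA reads and 1483 and 1683 pre-mRNA reads. Sqle had 3342 and 2773 mRNA reads and 561.6 and 513 pre-mRNA reads, and Cyp51 had 5654 and 3985 mRNA reads and 993 and 854 pre-mRNA reads. Idi1 was below LPS in both measures and Sqle and Cyp51 in pre-mRNA, while Fdft1 overlapped. Ebp had 1053 and 997 mRNA reads and 56.5 and 41.5 pre-mRNA reads, and Dhcr7 had 167 and 201 mRNA reads and 15 and 24.7 pre-mRNA reads. Insig1 had 4787 and 4868 mRNA reads and 1004 and 1156 pre-mRNA reads, and Insig2 had 679 and 599 mRNA reads and 498 and 432 pre-mRNA reads. Ebp pre-mRNA was above LPS, and Insig1 was below LPS in both measures and Insig2 in mRNA. Srebf1 had 6964 and 5616 mRNA reads and 2227 and 1985 pre-mRNA reads, and Srebf2 had 18029.6 and 17744 mRNA reads and 6765 and 6456 pre-mRNA reads. Stard4 had 4177 and 2674 mRNA reads and 865 and 577 pre-mRNA reads, and Acaca had 463 and 306 mRNA reads and 2193 and 1424 pre-mRNA reads. Srebf2 pre-mRNA was below LPS, and the others overlapped. Elovl1 had 4167 and 4219 mRNA reads and 502 and 709 pre-mRNA reads, and Fads1 had 1413 and 1713 mRNA reads and 10.6 and 68.5 pre-mRNA reads. Elovl1 mRNA was above LPS in both libraries, and the rest overlapped.

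Setting IL-10 throughout against late IL-10 directly tests the difference between the 2 schedules. In pre-mRNA 6 members were higher and 1 lower with IL-10 throughout, 22.6% of the members against 2.96% of all genes, of which 0.755% were higher and 2.2% lower. Fdps had 1399 and 1171 reads with IL-10 throughout against 301 and 412 with late IL-10 (1.86 ± 0.35), Lss 1162 and 997 against 228 and 288 (2.07 ± 0.25), and Hsd17b7 719 and 587 against 158 and 211 (1.82 ± 0.27). Sc5d had 1093 and 751 against 319 and 408 (1.33 ± 0.27), Scd2 224 and 223 against 10.6 and 24.7 (3.70 ± 0.48) and Elovl5 433 and 516 against 207 and 226 (1.13 ± 0.22). Scap was the lower one, with 995 and 787 against 1873 and 2202 (-1.20 ± 0.24). No libraries overlapped for these 7, which the test on the same libraries had picked, and their adjusted p ran from 0.0206 (Lss) to 0.0488 (Scap).

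In mRNA 3 members were higher and 0 lower, 9.68% of the members against 1.09% of all genes, of which 0.517% were higher and 0.569% lower. Unadjusted, 7 members were higher and 0 lower at p under 0.05, against 689 and 912 of all 11415 genes. Elovl6 had 525 and 274 reads with IL-10 throughout against 37.8 and 42.6 with late IL-10 (3.21 ± 0.40, adjusted p = 0.0215), Acat2 had 1158 and 919 against 212 and 237 (2.2 ± 0.30, adjusted p = 0.0288) and Scd2 had 1377 and 1106 against 232 and 316 (2.19 ± 0.26, adjusted p = 0.0207). Elovl6 pre-mRNA ran the other way, with 351 and 367 reads against 850.3 and 790.0 (-1.19 ± 0.27, adjusted p = 0.0589, and 0.00928 in the blocked fit). Both IL-10 throughout libraries were above both late IL-10 libraries in pre-mRNA for 26 of 31 members (83.9%, against 26% of all genes), and below for 3 (9.68%, against 27.1%), Scap, Srebf1 and Elovl6. All 7 pre-mRNA calls were lost with no filter on low values, and all 3 mRNA calls when only the compared groups were fitted (4 pre-mRNA calls were then left). The share of all genes called was not counted in these fits or in those with 1 library left out. The blocked fit called 20 higher and 2 lower in pre-mRNA, against 23.8% of all genes (9.23% higher and 14.6% lower), and 7 higher and 0 lower in mRNA, against 13.7% (5.15% higher and 8.53% lower). The calls it added in mRNA were Fdps, Fasn, Sqle and Lss (adjusted p from 0.00627 to 0.0477). In pre-mRNA it added Hmgcs1, Mvk, Mvd, Idi1, Fdft1, Sqle, Cyp51, Nsdhl, Dhcr7, Insig2, Stard4, Fasn, Acly, Fads1 and the lower Elovl6 (adjusted p from 0.00476 for Hmgcs1 to 0.0404 for Idi1). Without 1 library the fit called 0 members in mRNA for each of IL-10 throughout A and B and late IL-10 A and B, and in pre-mRNA 0 without IL-10 throughout A, IL-10 throughout B or late IL-10 A and 1, Scd2, without late IL-10 B.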

How the data were processed

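RNA was sequenced from 4 groups of 2 macrophage libraries. The authors deposited 1 table of signal values, a mean of scaled reads per gene for each group, as mRNA and as pre-mRNA. Trim Galore, DESeq and mm10 are named per the submitters' processing notes. Versions, aligner, counter, strand setting and the assignment of reads to pre-mRNA were not given in the sources used here. Reads of single libraries were then worked out, each signal value being solved as a mean of 2 whole read counts, each divided by its library's size factor (Python 3.11.15, sympy 1.14.0), with 1 solution for 100% of values and a largest relative error of 5.0e-15. Normalized reads of the single libraries were fitted with limma-trend (limma 3.58.1, R 4.3.3) on log2(value + 1), with the 8 libraries of each measure fitted together and no covariate beside group, keeping genes whose mean reached 1 (11415 for mRNA, 11131 for pre-mRNA). The log2 scale with its pseudocount understates changes of low genes. The spread behind an SE is shared over all groups. Calls needed an adjusted p under 0.05 (Benjamini-Hochberg, per comparison).

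No gene of the table had an LPS library under 11 mRNA reads. Genes scarcer than that under LPS are therefore missing from the shares over all genes. A missing row, as for Scd1 and Fads2, does not show absence in the other groups. Depth per library was 21412968 to 53172133 reads for mRNA, and 8661271 to 31508394 for pre-mRNA. Values in every library are given for members called in at least 1 comparison and for Srebf1, Srebf2, Scap, Insig1 and Insig2, and other members by range. Some genes of the other lists are not reported here. The members, the lists and the tests were chosen with earlier results of these data known. The fits and the recovery of reads were tested on simulated data. Alternatives were pseudocounts of 0.5 and 5, no filter, a mean of at least 50, scaling to total reads, limma-voom on the recovered reads, fits of the 2 compared groups alone, each library left out (the lone library left in a group is then assumed to vary like the other groups) and, added after the data were seen, a block of libraries that deviate together. Gene positions and overlaps come from GENCODE M21 on mm10, and promoter sequences from RefSeq.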

Additional observations from a re-analysis of the deposited data

Results flagged for a closer look

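10 changes of members differed between the schedules of IL-10, by a direct limma-trend test of IL-10 throughout against late IL-10 in LPS-treated cells (2 libraries per group). In mRNA the log2 differences were 2.2 for Acat2, 3.21 for Elovl6 and 2.19 for Scd2. In pre-mRNA they were 1.86 for Fdps, 1.82 for Hsd17b7, 2.07 for Lss, 1.33 for Sc5d, 3.70 for Scd2 and 1.13 for Elovl5, and -1.20 for Scap. In mRNA 3 of 31 members were called (9.68%, against 1.09% of all genes), and in pre-mRNA 7 (22.6%, against 2.96%). In each of the 10 both libraries of one schedule lay outside those of the other. The 10 were picked by the test on these same libraries, so this adds no support. No cause of these differences was tested.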

How the results depend on the processing

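No paired analysis was possible from the labels because the columns carry no replicate number. The replicate block built from libraries that deviate together was chosen after the data were seen. It called 18 members in pre-mRNA for IL-10 throughout against LPS (7 without it). For IL-10 throughout against late IL-10 it called 22 in pre-mRNA (7) and 7 in mRNA (3). It ended none of the 59 calls named, which is no check on them, because a block taken from the values removes spread between the libraries. For the member counts that follow, the share of all genes called in the same fit was not counted. Fitting only the compared groups left 0 mRNA calls for IL-10 throughout against LPS and against late IL-10, and 4 pre-mRNA calls against late IL-10. With no filter on low values 4 pre-mRNA calls were left against LPS and 0 against late IL-10. Leaving out 1 library gave 0 to 2 mRNA calls and 0 to 9 pre-mRNA calls for IL-10 throughout against LPS, and 0 mRNA and 0 to 1 pre-mRNA calls against late IL-10. For members whose pre-mRNA and mRNA changes differ under LPS, a pseudocount of 5 and scaling to total reads each left 0, and leaving out 1 library left 0 to 1. Elovl1 mRNA reversed to -0.0344 when scaled to total reads, by the shift of all genes that this scaling makes. Of the 59 calls 22 passed in every alternative run, and 59 of 59 passed with either other pseudocount and with a mean of at least 50. With 2 libraries a group, leaving 1 out leaves a lone library, and depth limits low members such as Dhcr7 pre-mRNA.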
